A study of Macaca nemestrina with 15 samples.

Results

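Genes of antibody-secreting cells and an immunoglobulin kappa variable segment were followed in the peripheral blood mononuclear cells (PBMCs) of 5 pig-tailed macaques (*Macaca nemestrina*) that received oral islatravir (ISL). The genes were *JCHAIN*, *MZB1*, *TXNDC5*, *DERL3*, *PRDM1*, *IRF4*, *SDC1* and *XBP1*, chosen for their known role in plasma cells. The segment was *IGKV1OR2-108*, an orphan kappa variable gene that the study named for its lower level in these same libraries, so its values are described here without a test. Rows of the count table were taken where the row's name equals a member's name. Of 9 names, 8 had a row among the 28865 features, and *XBP1* was not analysed here. Of those 8, 7 passed the filter on low counts that left 12880 features for testing. *SDC1* did not pass it.

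ISL is a nucleoside reverse transcriptase translocation inhibitor studied against HIV. Each of the 5 female macaques received ISL by gavage at 30 mg/kg once a week for 12 weeks and gave PBMCs before the first dose (pre-treatment), at the end of dosing (week 12) and at a time labelled week 18, which stands for 6 weeks after dosing stopped. The 3 groups therefore hold the same 5 animals, and no untreated animal was sequenced, so ISL and time cannot be told apart. No genotype or age was given for the animals in the sources used here. RNA of the whole PBMC fraction was sequenced, with 5610597 to 10379572 reads counted on genes per library (median 8871860). The shallowest libraries were those of animal Z15303 at week 12 and week 18, with 5610597 and 5886482 reads. Levels are given as library-scaled counts (CPM, counts relative to the library total), scaled between libraries by the trimmed mean of M values (TMM). CPM is not corrected for gene length, so levels of different genes are not ranked against each other. By the dates that library names carry, the later samples were taken 56 or 57 and 84 days after the earliest, fewer days than the labels week 12 and week 18 stand for. A figure legend of the study also gives an earlier week for the last sample, so the time since the last dose is uncertain, and the labels are used as names. Animals Z15339, Z15303 and Z15408 share their dates.

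Plasma cells and their dividing precursors, the plasmablasts, arise from activated B cells and release antibody. The transcription factors *IRF4* and *PRDM1* (BLIMP1) drive that change, and the cell then enlarges its endoplasmic reticulum (ER) to fold and export immunoglobulin. In healthy blood these cells are a small fraction of PBMCs, but each holds very large amounts of immunoglobulin and J chain RNA, so a few cells can set the level of these transcripts in a bulk sample. In bulk RNA, fewer cells of a type and less RNA per cell cannot be told apart.

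The T cell genes that define most PBMCs were present in every library, with a summed level of 2335 to 3523 CPM over 8 genes. Platelet genes were also present, at a summed 2707 to 9807 CPM over 6 genes, and red cell genes at 43.1 to 838 CPM over 4 genes. Over all 12880 tested features the median log2 fold change was 0.00 in both comparisons with pre-treatment.

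*JCHAIN* encodes the joining chain that links immunoglobulin monomers into dimeric IgA and pentameric IgM. Before treatment it stood at 333 CPM in Z15228, 112 in Z13076, 705 in Z15339, 117 in Z15303 and 109.9 in Z15408. At week 12 the same animals, in the same order, had 117, 83.0, 407, 44.3 and 137 CPM. At week 18 they had 116, 94.5, 405, 22.7 and 84.0 CPM. *JCHAIN* was thus lower than before treatment in 4 of 5 animals at week 12, Z15408 being the exception, and in 5 of 5 at week 18, although the ranges of the groups overlapped because the animals differed so widely from each other. The mean went from 275 ± 259 CPM (SD, n = 5) to 158 ± 144 at week 12 and 144 ± 149.8 at week 18.

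By the quasi-likelihood test of edgeR, with no term for the animal, the log2 fold change of *JCHAIN* was -0.80 (SE 0.72) at week 12 and -0.93 (SE 0.72) at week 18, and neither passed at an adjusted p of 0.05. Compared within the animal, the week 18 libraries held 65.3% less *JCHAIN* in Z15228, 80.5% less in Z15303 and 42.6% less in Z15339, but only 15.4% less in Z13076. The mean within-animal difference in log2 CPM was -0.76 ± 0.75 (SD, n = 5 animals) at week 12 and -1.06 ± 0.88 at week 18. With the animal as a block the SE was 0.24 in both comparisons and the edgeR adjusted p was 0.559 at week 12 and 0.106 at week 18. The 3 animals with shared dates had mean log2 differences of -0.62 and -1.18 at the 2 times, and the other 2 animals -0.97 and -0.88. Leaving out Z13076, the animal with the smallest difference at week 18, with the animal as a block gave a log2 fold change of -1.27 and an edgeR adjusted p of 0.0493, and of the settings tried this was the only one in which any of the 6 tested genes other than *IGKV1OR2-108* passed.

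**Figure D1:**
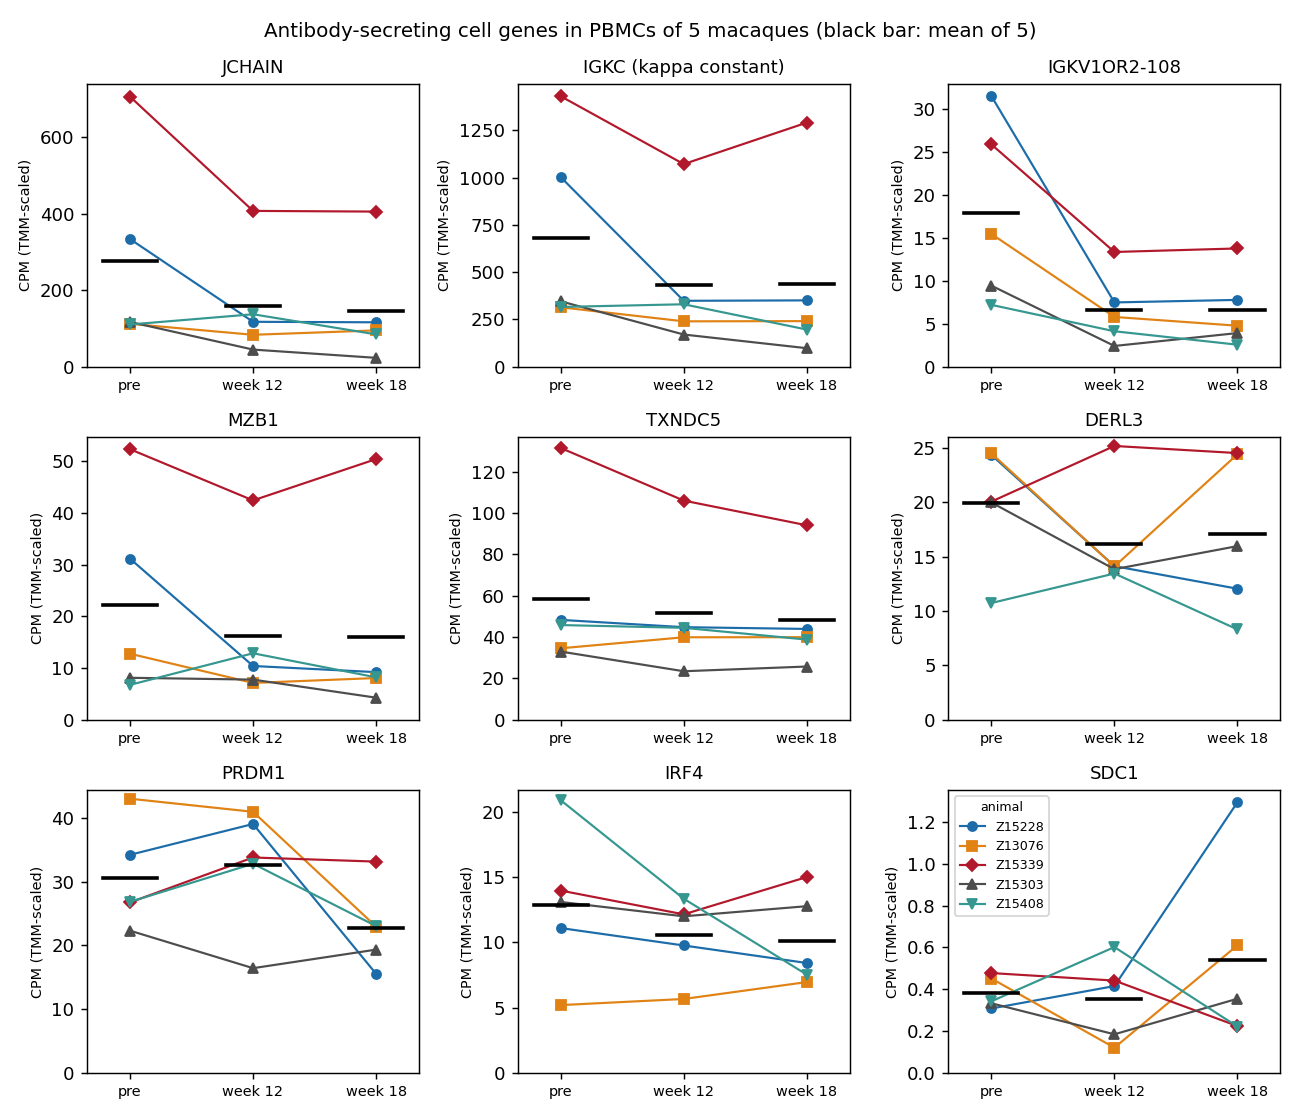
CPM (TMM-scaled) of the 8 members with a row and of *IGKC*, the kappa constant region, in each of the 15 libraries. Each coloured line is an animal, the x axis gives the time point, each y axis starts at 0 and black bars are means of 5 animals; Z15339 is the top line for *JCHAIN*, *IGKC*, *MZB1* and *TXNDC5* at all 3 time points.

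*MZB1* encodes an ER protein of marginal zone B cells and plasma cells that helps fold the immunoglobulin heavy chain. Its pre-treatment levels were 31.1 CPM in Z15228, 12.8 in Z13076, 52.3 in Z15339, 8.10 in Z15303 and 6.73 in Z15408. The week 12 levels, in that order, were 10.4, 7.11, 42.4, 7.75 and 12.8 CPM, and the week 18 levels 9.19, 8.05, 50.4, 4.26 and 8.19 CPM. The level was lower than before treatment in 4 of 5 animals at both times and higher in Z15408, in which it was 90.7% higher at week 12. The groups overlapped, with means of 22.2 ± 19.4, 16.1 ± 14.9 and 16.0 ± 19.3 CPM. The log2 fold changes were -0.45 (SE 0.71) at week 12 and -0.46 (SE 0.71) at week 18, and neither passed. Here and for *TXNDC5*, *DERL3*, *PRDM1* and *IRF4* below, the fit had no term for the animal, so the SEs include differences between animals. With the animal as a block, *MZB1* passed an unadjusted edgeR p under 0.05 at week 18, as 5.85% of all features did, but not the adjusted threshold. At week 12 the 3 animals with shared dates had a mean log2 difference of 0.18 and the other 2 animals -1.19. Of the animals with shared dates, only Z15408 was higher. The week 12 log2 fold change ran from -0.76 to -0.08 over 17 alternative settings, which include leaving out each animal.

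*TXNDC5* encodes a protein disulfide isomerase of the ER that is abundant in plasma cells and is also made by other cells. Before treatment it stood at 48.3 CPM in Z15228, 34.5 in Z13076, 131 in Z15339, 33.0 in Z15303 and 45.8 in Z15408. At week 12 it stood at 44.8, 39.9, 106, 23.4 and 44.4 CPM, and at week 18 at 43.9, 39.9, 94.0, 25.7 and 38.7 CPM. Z15339 held the highest level at each time, well apart from the other 4. Within animals the level was lower in 4 of 5 at both times and higher in Z13076, but the differences were small, with means of -0.15 ± 0.26 and -0.20 ± 0.26 in log2 CPM. The edgeR log2 fold changes were -0.18 (SE 0.44) and -0.27 (SE 0.44), and neither passed.

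*DERL3* encodes derlin-3, which helps move misfolded proteins out of the ER for degradation. It stood at 24.3 CPM in Z15228, 24.5 in Z13076, 20.1 in Z15339, 19.97 in Z15303 and 10.7 in Z15408 before treatment. At week 12 the levels were 14.1, 14.1, 25.2, 13.8 and 13.4 CPM, and at week 18 they were 12.0, 24.4, 24.5, 16.0 and 8.30 CPM. The animals did not move together, since Z15339 was above its own pre-treatment level at both times, Z15408 was above it at week 12 and Z13076 had nearly its own pre-treatment level at week 18. The means of 19.9 ± 5.59, 16.1 ± 5.06 and 17.0 ± 7.29 CPM differed by less than the spread among animals, which does not measure a change within animals. The log2 fold changes were -0.30 (SE 0.30) and -0.22 (SE 0.30), and neither passed.

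*PRDM1* encodes BLIMP1, a repressor that ends the B cell programme in plasma cells and is also expressed in activated T and NK cells. Its levels before treatment were 34.2 CPM in Z15228, 43.0 in Z13076, 26.7 in Z15339, 22.3 in Z15303 and 26.8 in Z15408. At week 12 they were 39.0, 40.9, 33.8, 16.4 and 32.8 CPM, and at week 18 they were 15.5, 22.9, 33.1, 19.3 and 23.0 CPM. *PRDM1* was lower in 2 of 5 animals at week 12 and in 4 of 5 at week 18. Its lower level at week 18 lay mainly in the animals outside the shared dates, Z15228 and Z13076, with a mean log2 difference of -1.01 against -0.04 in the 3 animals with shared dates. The log2 fold changes were 0.10 (SE 0.24) at week 12 and -0.42 (SE 0.25) at week 18, and neither passed. With the animal as a block, *PRDM1* passed an unadjusted edgeR p under 0.05 at week 18, as 5.85% of all features did, but not the adjusted threshold.

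*IRF4* encodes the factor that starts plasma cell differentiation and also acts in activated T cells and dendritic cells. Before treatment it stood at 11.1 CPM in Z15228, 5.19 in Z13076, 13.97 in Z15339, 13.1 in Z15303 and 20.9 in Z15408. The week 12 levels were 9.76, 5.66, 12.1, 12.0 and 13.3 CPM, and the week 18 levels 8.42, 6.96, 15.002, 12.8 and 7.53 CPM. Z15408 was 36.1% lower at week 12 and 64.0% lower at week 18, while Z13076 was higher at both times. The log2 fold changes were -0.28 (SE 0.32) and -0.34 (SE 0.33), neither passed, and the second became 0.02 without Z15408 when the animal was a block.

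*SDC1* encodes syndecan-1 (CD138), the surface marker of mature plasma cells. It had 3, 4, 4, 3 and 3 counts in the pre-treatment libraries of Z15228, Z13076, Z15339, Z15303 and Z15408. It had 4, 1, 4, 1 and 6 counts at week 12 and 10, 5, 2, 2 and 2 counts at week 18. At 1 to 10 counts per library no difference between the time points was detectable at this depth. Syndecan-1 RNA was thus near the limit of detection in libraries that held 128 to 5909 *JCHAIN* counts.

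Of the 6 tested genes other than *IGKV1OR2-108*, 0 passed an adjusted p of 0.05 in edgeR at week 12 and 0 at week 18, against 0% of all 12880 features in each comparison. DESeq2 also called 0 of the 6, with and without the animal as a block. At an unadjusted p under 0.05, 0 of the 6 passed without the block, against 1.61% of all features at week 12 and 1.69% at week 18. With the animal as a block, 0 of the 6 passed the adjusted threshold, against 0.00776% of all features at week 12 and 0.00776% at week 18. In that fit *JCHAIN* passed the unadjusted threshold at week 12, against 4.69% of all features, and *JCHAIN*, *MZB1* and *PRDM1* passed it at week 18, against 5.85% of all features. Lower levels in 5 of 5 animals were seen for 0 of the 6 genes at week 12 (3.45% of all features) and for 1 of the 6, *JCHAIN*, at week 18 (3.49% of all features). The fold changes were negative for 5 of the 6 genes at week 12, with a median of -0.29 on the log2 scale, and for 6 of the 6 at week 18, with a median of -0.38, beside a median of 0.00 over all features at both times. These comparisons share the pre-treatment libraries. No gene of the 6 had groups that did not overlap, which 0.28% of all features did at week 12 and 0.334% at week 18.

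Between week 18 and week 12 the mean levels of the genes other than *PRDM1* differed by less than the SD among animals in either group. The groups hold the same animals, so that SD does not measure a change within animals. Within animals, *JCHAIN* was 48.7% lower at week 18 than at week 12 in Z15303 and 38.5% lower in Z15408. It was 1.09% lower in Z15228, 0.44% lower in Z15339 and 13.8% higher in Z13076. The log2 fold change of *JCHAIN* was -0.13 (SE 0.71), that of *TXNDC5* was -0.09 (SE 0.44) and that of *IRF4* was -0.06 (SE 0.33). The largest difference among the 6 genes was in *PRDM1*, from 32.6 ± 9.67 to 22.8 ± 6.55 CPM, or -0.52 (SE 0.25) on the log2 scale, with an unadjusted edgeR p of 0.0517. With the animal as a block *PRDM1* was at -0.49 (SE 0.19) and passed the unadjusted threshold, as 2.17% of all features did, but not the adjusted one. In edgeR 0 of the 6 genes passed the adjusted threshold (0% of all features), and 0 of the 6 passed the unadjusted one without the block (0.505% of all features). Again 0 were called by DESeq2 with or without the block.

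**Figure D2:**
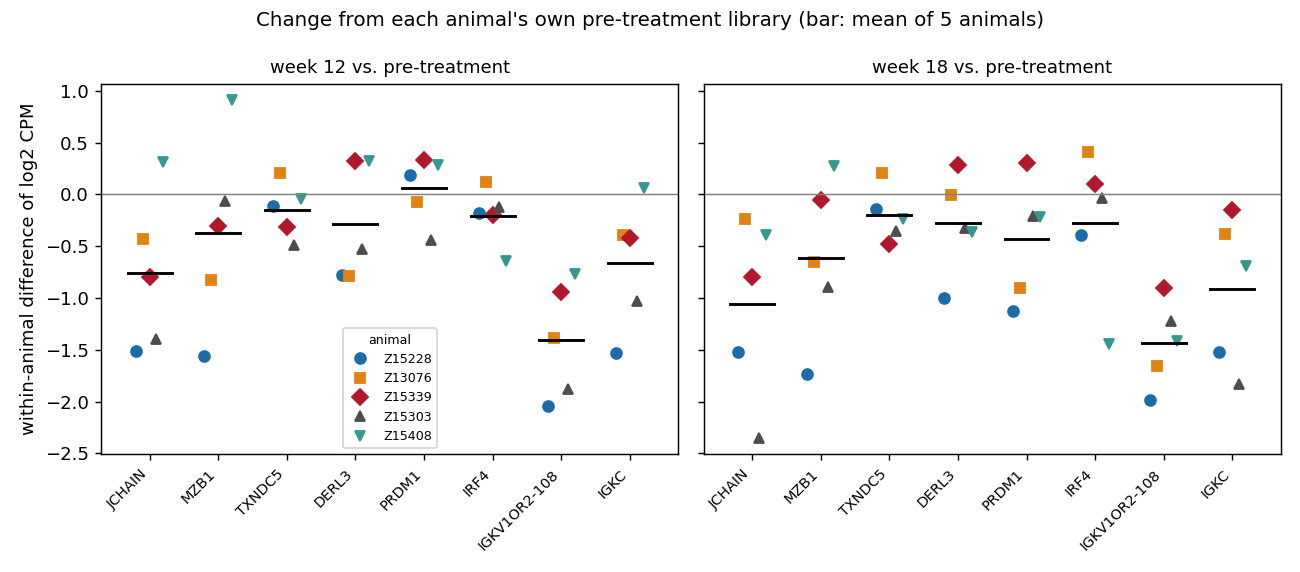
Within-animal difference in log2 CPM (y axis) from the animal's own pre-treatment library at week 12 (left) and week 18 (right), for the 7 tested members and *IGKC*. Each symbol is an animal and black bars are means of 5 animals; all 5 symbols of *JCHAIN* lie below 0 at week 18, and all 5 of *IGKV1OR2-108* at both times, a direction for which that segment was chosen.

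*IGKV1OR2-108* belongs to the kappa variable genes that lie apart from the immunoglobulin kappa locus, and reads on such an orphan row can come from near-identical variable segments that the rearranged kappa chains use. Its pre-treatment levels were 31.5 CPM in Z15228, 15.5 in Z13076, 25.9 in Z15339, 9.43 in Z15303 and 7.19 in Z15408, from 63 to 307 counts per library. At week 12 the levels were 7.48, 5.78, 13.4, 2.40 and 4.11 CPM (13 to 121 counts), and at week 18 they were 7.77, 4.76, 13.8, 3.90 and 2.55 CPM (22 to 123 counts). The level was lower in 5 of 5 animals at both times, by 42.8% (Z15408) to 76.3% (Z15228) at week 12 and by 46.8% (Z15339) to 75.4% (Z15228) at week 18. The ranges still overlapped, since the week 12 and week 18 levels of Z15339 were above the pre-treatment levels of Z15303 and Z15408.

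The fitted log2 fold changes of *IGKV1OR2-108* were -1.42 (SE 0.51) at week 12 and -1.44 (SE 0.51) at week 18 without the block, and -1.42 (SE 0.20) and -1.49 (SE 0.21) with the animal as a block. The SEs describe the spread among libraries and test nothing, since the segment was chosen by these values. Between week 12 and week 18 its log2 fold change was -0.02 (SE 0.51). The mean of the within-animal differences was -1.197 in the 3 animals with shared dates and -1.71 in the other 2 at week 12, and -1.18 and -1.82 at week 18.

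Of the 12 other rows named as immunoglobulin genes, 9 were tested. They were *IGKC*, *IGKV4-1*, *IGKV6D-41*, *IGLV3-1*, *IGLV3-10*, *IGLV9-49*, *IGLV11-55*, *IGHV3-72* and *IGHV1-69-2*. All 9 had negative fold changes at both times, with medians of -0.66 at week 12 and -0.69 at week 18 on the log2 scale, and 0 of the 9 passed in edgeR or DESeq2, with or without the block. Rows that carry only an identifier were not counted here. By DESeq2 the study called several such rows, which it describes as Ig-like, lower at week 12. At an unadjusted edgeR p under 0.05, 0 of the 9 passed without the block, and 4 at week 12 and 6 at week 18 with it, against 4.69% and 5.85% of all features. Lower levels in 5 of 5 animals were seen for 2 of the 9 at week 12 and 4 of the 9 at week 18, against 3.45% and 3.49% of all features. The fold changes ran from -1.52 (SE 0.82) for *IGLV9-49* to -0.06 (SE 0.56) for *IGHV1-69-2* at week 12. At week 18 they ran from -1.11 (SE 0.81) for *IGLV9-49* to -0.05 (SE 0.56) for *IGHV1-69-2*. Counts on several of these rows were low, at 0 to 46 for *IGLV9-49* and 1 to 38 for *IGKV6D-41*, and reads may be shared among near-identical segments, so single variable segments are uncertain.

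*IGKC*, the kappa constant region, held the most reads of the named immunoglobulin rows, with 547 to 11984 counts per library. It stood at 1003 CPM in Z15228, 314 in Z13076, 1431 in Z15339, 345 in Z15303 and 315 in Z15408 before treatment. At week 12 it stood at 348, 239, 1071, 169 and 329.5 CPM, and at week 18 at 350.1, 240.3, 1291, 97.0 and 196 CPM. *IGKC* was lower than before treatment in 4 of 5 animals at week 12 and in 5 of 5 at week 18, as *JCHAIN* was. Its log2 fold changes were -0.66 (SE 0.66) and -0.65 (SE 0.66), and with the block -0.69 (SE 0.21, edgeR adjusted p = 0.627) and -0.92 (SE 0.21, edgeR adjusted p = 0.145).

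Ratios of counts within a library do not depend on its scaling. *JCHAIN* counts amounted to 37.4% ± 6.75 of *IGKC* counts before treatment (SD, n = 5), 34.8% ± 5.72 at week 12 and 34.0% ± 7.55 at week 18, and the ratio was lower in 3 of 5 animals at either time. *IGKV1OR2-108* counts amounted to 2.98% ± 1.199 of *IGKC* counts before treatment, 1.70% ± 0.55 at week 12 and 2.12% ± 1.16 at week 18. That ratio was lower in 5 of 5 animals at week 12 and in 4 of 5 at week 18, with Z15303 the exception at 4.02% from 22 *IGKV1OR2-108* counts. *TXNDC5* counts were 26.8% ± 10.7 of *JCHAIN* counts before treatment, 39.6% ± 11.0 at week 12 and 52.6% ± 35.03 at week 18, and that ratio was higher than before treatment in 4 of 5 animals at week 12 and 5 of 5 at week 18.

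**Figure D3:**
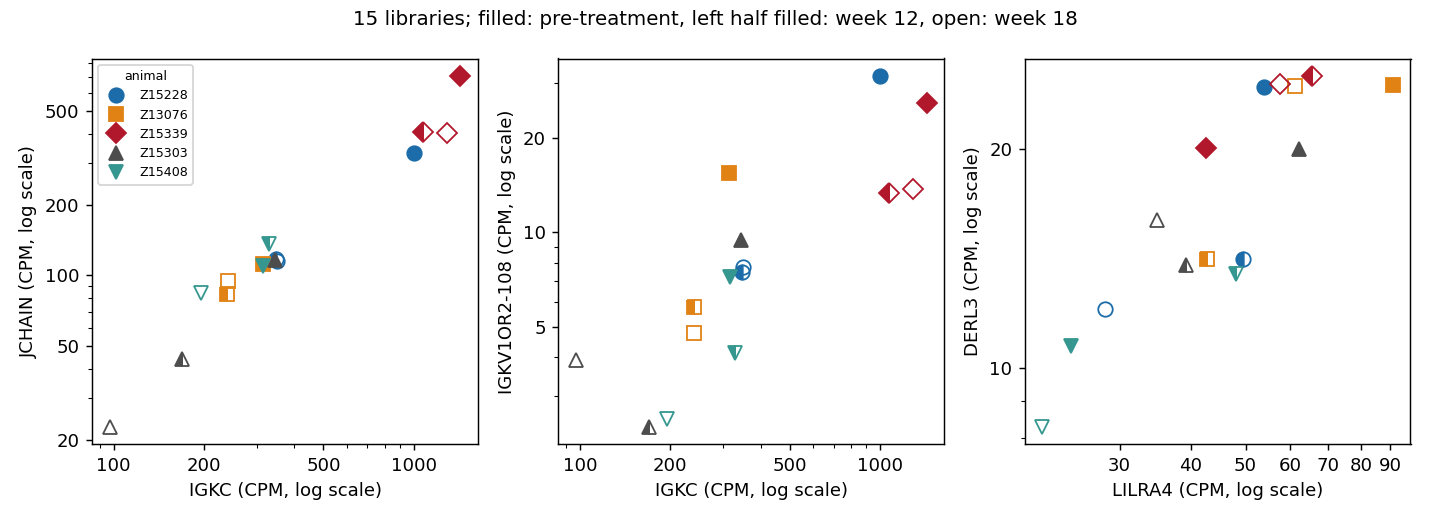
Levels of *JCHAIN* (left) and *IGKV1OR2-108* (middle) against *IGKC*, and of *DERL3* against *LILRA4* (right), in CPM on log axes. Each symbol is a library, coloured by animal, filled before treatment, partly filled at week 12 and open at week 18; *JCHAIN* follows *IGKC* over the 15 libraries (r = 0.98), and the *IGKV1OR2-108* libraries from before treatment lie above the later ones of the same animal.

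*JCHAIN*, *MZB1*, *TXNDC5* and *IGKC* varied together over the 15 libraries. Pearson's r of log2 CPM was 0.98 for *JCHAIN* and *IGKC* (Spearman's rho 0.957), 0.94 for *JCHAIN* and *MZB1*, 0.91 for *JCHAIN* and *TXNDC5* and 0.96 for *MZB1* and *IGKC*. These are descriptions without a test, since the 15 libraries come from 5 animals and share depth and scaling. After subtraction of each animal's mean, r stayed at 0.96 for *JCHAIN* and *IGKC* and at 0.78 for *JCHAIN* and *MZB1*, but was 0.65 for *JCHAIN* and *TXNDC5* and 0.15 for *MZB1* and *TXNDC5*. *PRDM1* and *IRF4* followed *JCHAIN* less, with r of 0.43 and 0.25, and had an r of -0.22 with each other. The mature B cell gene *MS4A1* (CD20) had an r of 0.58 with *JCHAIN* and 0.61 with *IGKC* over the libraries. With the animal means subtracted these were 0.85 and 0.84, the first above the 0.78 of *JCHAIN* and *MZB1*. *TNFRSF17* (BCMA), a receptor of plasma cells, had an r of 0.73 with *JCHAIN*, and 0.37 with the animal means subtracted.

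*IGKC* was the feature most like *JCHAIN* among all those tested and the second most like *MZB1*. Most of the other features closest to *JCHAIN*, *MZB1*, *TXNDC5* and *IGKV1OR2-108* carried only an identifier, the closest to *JCHAIN* being ENSMNEG00000026292 (r = 0.98). The study describes ENSMNEG00000005794, which had an r of 0.90 with *IGKV1OR2-108*, as Ig-like and reports it lower during treatment. After subtraction of the animal means, ENSMNEG00000037499 (r = 0.92 with *IGKV1OR2-108*) and ENSMNEG00000017115 (r = 0.96 with *JCHAIN*) were also close. The study describes both as Ig-like and lower during treatment too. The named feature closest to *TXNDC5* was *KIF2C* (r = 0.93). *PRDM1* was most like *PDCD1* (r = 0.86), which encodes the T cell receptor PD-1, followed by *OSBPL7*, *KRBA2*, *PDE4A* and *ZFP36L2*. *IRF4* was most like *TMPO* (r = 0.89), followed by *CSMD1*, *ERBIN*, *ZMAT3* and *TTC24*. *DERL3* was most like *LILRA4* (r = 0.87, Spearman's rho 0.85), a receptor that defines plasmacytoid dendritic cells, and *PARD6A*, *CHN1* and *RAB15* were the other named features among its closest 5. With the animal means subtracted, the closest named features were *MAP3K8* for *MZB1* (r = 0.88), *CREB1* for *TXNDC5* (r = 0.96), *CEBPB* for *DERL3* (r = 0.90), *ASXL2* for *PRDM1* (r = 0.92), *SMIM14* for *IRF4* (r = 0.91) and *SH3BP5* for *IGKV1OR2-108* (r = 0.92).

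Differences between animals were larger than those between time points for all 7 tested members, though by little for *PRDM1* and *IGKV1OR2-108*. The SD of the 5 animal means in log2 CPM was 1.22 for *JCHAIN*, 1.12 for *MZB1*, 0.85 for *IGKV1OR2-108*, 0.74 for *TXNDC5*, 0.49 for *IRF4*, 0.42 for *DERL3* and 0.31 for *PRDM1*, against a median of 0.24 over all tested features. The SD of the 3 time point means was 0.55 for *JCHAIN*, 0.31 for *MZB1*, 0.10 for *TXNDC5* and 0.82 for *IGKV1OR2-108*. For *IRF4*, *DERL3* and *PRDM1* it was 0.14, 0.16 and 0.27. Z15339 was the highest animal for *JCHAIN*, *MZB1*, *TXNDC5* and *IGKC* at all 3 times. Z15303 was the lowest for *TXNDC5* at all 3 times and, at week 18, for *JCHAIN*, *MZB1* and *IGKC*, where its library was also among the shallowest.

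Other genes of antibody-secreting cells and of the secretory pathway were taken from fixed lists. Of 9 further surface and regulator genes of plasma cells, 0 passed in either comparison, 6 were lower and 3 higher at both times, and the medians were -0.09 and -0.02 on the log2 scale. The largest fold changes belonged to *POU2AF1*, a B cell coactivator, at -0.60 (SE 0.60) and -0.94 (SE 0.61), and to *TNFRSF17* (BCMA), the receptor that keeps plasma cells alive, at -0.44 (SE 0.63) and -0.49 (SE 0.63). *TNFRSF17* rested on 4 to 94 counts per library. *ELL2*, an elongation factor that favours the secreted form of immunoglobulin heavy chain, was at -0.35 (SE 0.17) and -0.33 (SE 0.17), and was lower in 4 of 5 animals at week 12 and in 5 of 5 at week 18.

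Of 33 tested genes of the ER folding, translocation and export machinery, 0 passed in either comparison. They numbered 23 lower and 10 higher at week 12 and 21 lower and 12 higher at week 18, with medians of -0.05 and -0.03. *HSPA5* (BiP), the main ER chaperone, was at 680.2 ± 83.3, 637 ± 126 and 650.5 ± 130.1 CPM at the 3 times. *SEC24D*, a coat protein of vesicles leaving the ER, had the largest fold change in both comparisons, -0.31 (SE 0.20) and -0.33 (SE 0.20). The next were *PRDX4* (-0.23) and *ERO1B* (0.20) at week 12 and *SYVN1* (-0.19) and *KDELR2* (-0.17) at week 18. Of 6 sensors and effectors of the unfolded protein response, 0 passed, with medians of -0.12 and -0.06. The largest values were those of *EIF2AK3* (-0.16), *DDIT3* (-0.13) and *ATF6* (-0.13) at week 12 and of *ERN1* (-0.26), *ATF4* (0.09) and *EIF2AK3* (-0.08) at week 18. These genes are expressed in every cell of the PBMCs. In these 3 lists 0 genes passed an unadjusted edgeR p under 0.05 without the block, and DESeq2 called 0 with or without it. With the block, 1 of the 9 surface and regulator genes passed the unadjusted threshold at week 12 and 2 at week 18, all lower, against 4.69% and 5.85% of all features, and 0 of the ER and unfolded protein response genes did.

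**Figure D4:**
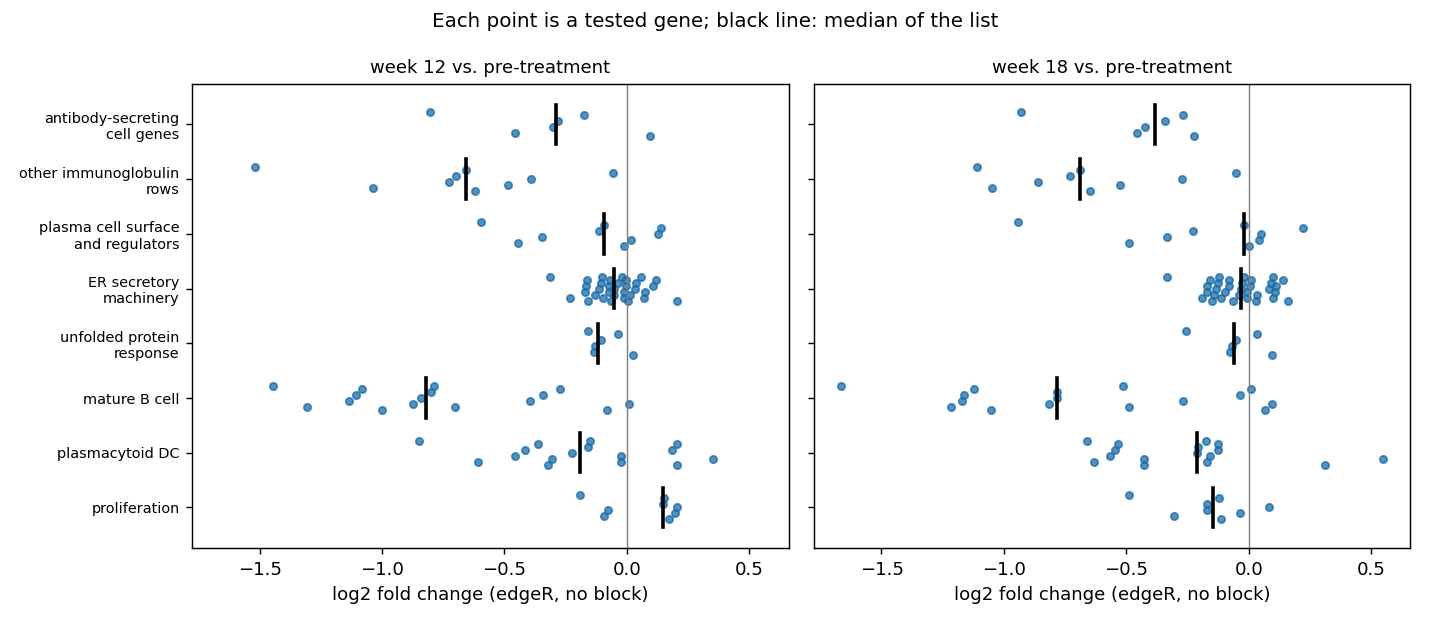
edgeR log2 fold changes without the block (x axis) of the 6 tested antibody-secreting cell genes and of the genes of 7 fixed lists, at week 12 (left) and week 18 (right) against pre-treatment. Each point is a tested gene and each black line a median; the medians of the ER machinery lie near 0 (-0.05 and -0.03), and those of the mature B cell genes (-0.82 and -0.78) and of the other immunoglobulin rows (-0.66 and -0.69) lie lowest.

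Genes of mature B cells, from which antibody-secreting cells derive, were lower beside these values. Of 16 tested, 15 were lower at week 12 and 13 at week 18, with medians of -0.82 and -0.78, and 0 passed in edgeR in either comparison. At an unadjusted edgeR p under 0.05, 6 of the 16 passed at each time without the block, against 1.61% and 1.69% of all features, and 12 at week 12 and 11 at week 18 with it, against 4.69% and 5.85%. DESeq2 with the animal as a block called 7 of them at week 12, among 23 of 12859 features, and 8 at week 18, among 50 of 20732. Lower levels in 5 of 5 animals were seen for 11 of the 16 at week 12 and 8 of the 16 at week 18, against 3.45% and 3.49% of all features. The summed level of the list was 409 to 1201 CPM before treatment, 269 to 697 at week 12 and 330.04 to 625 at week 18. The study named several of these genes from the same libraries, so the list is no independent evidence of direction. *MS4A1* (CD20), which plasma cells lack, was at -1.13 (SE 0.58) and -1.17 (SE 0.58) on the log2 scale. *EBF1* was at -1.30 (SE 0.65) and -1.66 (SE 0.67), and *VPREB3* at -1.45 (SE 0.47) at week 12. *MS4A1* counts amounted to 34.8% ± 17.0 of *JCHAIN* counts before treatment, 34.7% ± 28.3 at week 12 and 34.7% ± 23.7 at week 18. Its medians were 36.3%, 23.2% and 27.1%, and it was lower than before treatment in 3 of 5 animals at either time and higher in Z15228 and Z15303. Their part in the lower *JCHAIN* and immunoglobulin levels was not tested.

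*DERL3* and *IRF4* are also expressed by plasmacytoid dendritic cells. Of 16 tested genes of these cells, 12 were lower at week 12 and 14 at week 18, with medians of -0.19 and -0.21, and 0 passed in edgeR. At an unadjusted edgeR p under 0.05, 2 passed at week 12 and 1 at week 18 without the block, against 1.61% and 1.69% of all features, and 4 and 3 with it, against 4.69% and 5.85%. DESeq2 with the animal as a block called 1 of them, *TCF4*, at both times. Lower levels in 5 of 5 animals were seen for 3 of the 16 at each time, against 3.45% and 3.49% of all features. The largest fold changes were *SCAMP5* (-0.85) at week 12, *SMPD3* (-0.66) at week 18, *TCF4* (-0.61 and -0.63) and *PLD4* (-0.45 and -0.57). The summed level of the list, which is led by *GZMB*, an abundant NK cell product, was 2274 to 4908 CPM before treatment, 3012 to 6138 at week 12 and 3021 to 4632 at week 18. Of the defining markers, *CLEC4C* was not analysed here, *LAMP5* had 0 counts in every library of week 12 and week 18 and at most 1 before treatment, and *LILRA4* was well measured. *LILRA4* stood at 53.9, 91.0, 42.6, 62.0 and 24.7 CPM in Z15228, Z13076, Z15339, Z15303 and Z15408 before treatment. At week 12 it stood at 49.4, 42.8, 65.5, 39.3 and 48.2 CPM, and at week 18 at 28.2, 61.1, 57.4, 34.9 and 21.9 CPM. It moved the same way as *DERL3* in 5 of 5 animals at week 12, both being higher in Z15339 and Z15408 and lower in the rest. *LILRA4* is the feature most like *DERL3* over these same libraries, so this is no separate evidence. The genes of the list that were lower in 5 of 5 animals at week 12 were lower in Z15339 and Z15408 too. *DERL3* counts were 39.0% ± 8.88 of *LILRA4* counts before treatment, 32.6% ± 4.45 at week 12 and 41.8% ± 2.98 at week 18. Any part of plasmacytoid dendritic cells in the values of *DERL3*, *IRF4*, *JCHAIN*, *MZB1* or the other members was not tested.

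Proliferation genes, which plasmablasts express and resting plasma cells do not, showed no change that passed. Of 8 tested, 5 were higher at week 12 (median 0.15) and 7 were lower at week 18 (median -0.15). *MKI67* was at 21.9 ± 9.58, 24.3 ± 6.90 and 20.2 ± 8.53 CPM at the 3 times, and *TOP2A* had fold changes of -0.19 (SE 0.36) and -0.49 (SE 0.36). In the lists for other blood cells, 0 genes passed in edgeR or DESeq2, and 0 at an unadjusted edgeR p under 0.05 without the block at either time. The medians at week 12 and week 18 were 0.15 and 0.06 for 8 T cell genes, 0.15 and -0.04 for 6 NK cell genes, -0.23 and 0.22 for 7 monocyte genes, 0.23 and 0.13 for 6 platelet genes and -0.74 and -0.75 for 3 red cell genes.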

How the data were processed

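Libraries were made from total PBMC RNA by SMART-Seq v4 amplification and Nextera XT fragmentation, which do not mark the strand. Reads were aligned by the authors to the *M. nemestrina* annotation of Ensembl with STAR 2.7.9a and counted per gene. The deposited values are raw counts, without normalization or filtering, and whole numbers in all 15 libraries. Which strand column of the STAR counts was kept is not given in the sources used here. Pairs of near-identical genes can lose or share reads in such counting.

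From these counts, TMM factors, CPM and log2 CPM (prior count 2) were computed with edgeR 4.0.16 in R 4.3.3. Features were kept by filterByExpr (minimum count 10), which left 12880 of 28865. Groups were compared by the quasi-likelihood F test of edgeR in a model of all 15 libraries that held time point alone, with p adjusted by Benjamini-Hochberg over all tested features at 0.05. An SE was obtained as the size of the log2 fold change over the root of its F. Libraries of the same animal, matched by the subject label, were paired: deviations from the group means had a mean correlation of 0.551 within animals (15 pairs, 0.351 to 0.683) and -0.137 between different animals and times. The biological coefficient of variation was 29.3% without the animal as a block and 16.9% with it. DESeq2 1.42.0, other size factors, other filters and leaving out each animal were the alternatives. The test was also run on simulated counts. These had smaller differences between animals than *JCHAIN* and *MZB1* show, so that run does not cover such genes.

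The members and gene lists were chosen with earlier results of these data known. Genes of the lists were named when they passed an adjusted p of 0.05 or were among the 3 largest fold changes of a list in a comparison with pre-treatment, and *LILRA4*, *MS4A1*, *TNFRSF17*, *MKI67* and *HSPA5* were named whatever their values. A gene of the lists that is withheld for evaluation is not reported here. Immunoglobulin rows were those whose names start with IGH, IGK or IGL, without *IGLON5* and *IGHMBP2*, which encode no immunoglobulin. Likeness was measured by Pearson's r of log2 CPM over 15 libraries. No sequences or coordinates are given, since the gene table used here did not match the members' names.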

Additional observations from a re-analysis of the deposited data

Results flagged for a closer look

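In groups of 5 libraries, 10 of the 27 groups examined for *JCHAIN*, *MZB1*, *TXNDC5*, *DERL3*, *PRDM1*, *IRF4*, *SDC1*, *IGKV1OR2-108* and *IGKC* held a library far from the other 4 (Dixon's ratio above 0.71). That cutoff marks about 1 in 20 groups of normally distributed values. The ratio was taken on CPM, which were skewed to high levels, with a *JCHAIN* mean of 275 and median of 117 before treatment. The rate of 1 in 20 is therefore no baseline for these groups. The groups are not independent, since the genes vary together and the animals recur. In all 10 the library was the highest and came from animal Z15339. For *JCHAIN* it was at 407 CPM at week 12, where the next library was at 137, and at 405 CPM at week 18, where the next was at 116. For *MZB1* it was at 42.4 CPM at week 12 (next 12.8) and 50.4 CPM at week 18 (next 9.19). For *TXNDC5* it was at 131 CPM before treatment (next 48.3), 106 CPM at week 12 (next 44.8) and 94.0 CPM at week 18 (next 43.9). For *IGKC* it was at 1071 CPM at week 12 (next 348) and 1291 CPM at week 18 (next 350.1). For *DERL3* it was at 25.2 CPM at week 12 (next 14.1).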

How the results depend on the processing

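With 5 animals, the spread between animals in *JCHAIN* and *MZB1* sets the SE without a block, and at 1 to 10 counts *SDC1* could not be compared. Features called at week 12 numbered 0 in edgeR, 1 with the animal as a replicate block (*IGKV1OR2-108*, chosen for this change, so the call is no test of it), 1 in DESeq2, 23 in DESeq2 with the replicate block, and 0 to 6 when 1 animal was left out, the 6 without Z13076 and with the block. At week 18 they numbered 0, 1 with the block (the same segment), 50 in DESeq2 with the block, and 0 to 17 when 1 animal was left out, 17 without Z13076 and 3 without Z15408, both with the block. Between week 18 and week 12, DESeq2 with the block called 8 and the other settings 0. Of the genes of the lists, DESeq2 with the block called 8 at week 12 and 9 at week 18, and edgeR with the block without Z13076 called 2 and 5. Of the 6 genes other than *IGKV1OR2-108*, 1 was called in a single setting, *JCHAIN* at week 18 without Z13076 with the block, and the replicate block changed no other call among them.

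The log2 fold change of *JCHAIN* ran from -1.08 to -0.60 at week 12 and from -1.27 to -0.77 at week 18 over all alternatives. *IRF4* at week 18 was at 0.017 without Z15408 with the block. Between week 18 and week 12, *MZB1* was at 0.0043 with library totals only, 0.02 without Z15228, 0.06 without Z15303 and 0.091 without Z15408 (-0.36 to 0.091 over the animals left out, no block). In the same comparison *IRF4* was at 0.0010 without Z15228 with the block and at 0.13 without Z15408 (0.13 with the block, and -0.20 to 0.13 over the animals left out, no block), and *DERL3* was at -0.13 without Z13076 (-0.19 with the block) and -0.033 without Z15303 with the block, with a range of -0.13 to 0.19 over the animals left out, no block. The cause was not tested. In all, 345 of the single-gene values were counted as unchanged, 11 reversed and 1 became stronger. For the other tested members, unchanged means the same direction and side of the threshold. For the kappa variable segment chosen for its lower level, neither was checked. Its log2 fold change between week 18 and week 12 ran from -0.18 to 0.067, and no change of sign was counted for it. In the 3 animals with shared dates the 7 tested members had median log2 fold changes of -0.25 (week 12) and -0.38 (week 18). Over all animals the matching medians were -0.30 and -0.42. The 7 include the segment chosen for its lower level, so these medians are no independent evidence of direction. In the 3 animals with shared dates, the mean within-animal differences at week 12 were 0.18 for *MZB1*, 0.04 for *DERL3* and 0.06 for *PRDM1*.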
